A study of Mus musculus with 6 samples.

Results

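Inhibitory receptors of myeloid cells are described here through 10 genes, *Ceacam1*, *Pirb*, *Lilrb4a*, *Cd300a*, *Cd300lf*, *Clec12a*, *Sirpa*, *Siglece*, *Lair1* and *Pilra*, out of 29097 genes in the deposited table. They were chosen by name as receptors that carry an immunoreceptor tyrosine-based inhibitory motif (ITIM) and occur on myeloid cells, and all 10 passed the filter on low values (mean FPKM of 1 or more) and were tested. FPKM is the number of fragments scaled to gene length and to the library total, and levels are compared between genes only on this scale. The libraries were made by Smart-seq2 from PB neutrophils sorted as CD45+CD11b+Ly6G+, with 3 libraries from Ctrl mice, left unligated, and 3 from mice with ligature-induced periodontitis (LIP), whose second molars in both jaws were tied with silk for 14 d. All mice were male C57BL/6 of 8 weeks, and each library pooled the neutrophils of 5 mice, so the spread given below is between pools and not between animals. The sample labels name the LIP group Lig.

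An ITIM is a short stretch around a tyrosine in the cytoplasmic tail of a receptor. When the receptor is engaged beside an activating receptor, Src family kinases phosphorylate this tyrosine, and the phosphatases SHP-1, SHP-2 or SHIP-1 are recruited to it and remove phosphates from the activating pathway. Many of these receptors have a closely related activating partner, which lacks the motif and signals through the adaptors DAP12 (*Tyrobp*) or the Fc receptor gamma chain (*Fcer1g*), and in neutrophils the paired families are known for setting the threshold of adhesion, degranulation and oxidative burst.

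The stretch of the coding sequence that gives each receptor its place among the members is shown as the 18 bases of 1 ITIM, 5′ to 3′ on the gene's strand, with the tyrosine codon in capitals. The motif was searched as isoleucine, valine, leucine or serine, any residue, tyrosine, any pair of residues, and leucine, isoleucine or valine, on the cytoplasmic side of the membrane span in GENCODE transcripts on GRCm38. For each gene the first such run within 1 exon is printed, from the transcript with the most ITIMs and, among equals, the longest coding sequence.
Ceacam1: gtcgcaTACactgtcctg (chr7:25463874-25463891, minus strand, exon 9 of 9)
Pirb: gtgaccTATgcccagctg (chr7:3712786-3712803, minus strand, exon 15 of 15)
Lilrb4a: attgtcTACgcccaggta (chr10:51496021-51496038, plus strand, exon 8 of 9)
Cd300a: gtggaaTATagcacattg (chr11:114899846-114899863, plus strand, exon 6 of 7)
Cd300lf: ctctgtTATgcagacctg (chr11:115117648-115117665, minus strand, exon 6 of 7)
Clec12a: attgttTATgcaaatctc (chr6:129350433-129350450, plus strand, exon 1 of 6)
Sirpa: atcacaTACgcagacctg (chr2:129629954-129629971, plus strand, exon 8 of 8)
Siglece: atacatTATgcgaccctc (chr7:43651585-43651602, minus strand, exon 7 of 7)
Lair1: gtgacgTATatccagctg (chr7:4009790-4009807, minus strand, exon 8 of 8)
Pilra: atcgtgTATgcttccatc (chr5:137823571-137823588, minus strand, exon 7 of 7)
All of these runs are coding. By this pattern, *Pirb* and *Sirpa* carry up to 3 ITIMs in a transcript, *Lilrb4a*, *Cd300a*, *Cd300lf* and *Lair1* carry up to 2, and *Ceacam1*, *Clec12a*, *Siglece* and *Pilra* carry 1. A related tyrosine pattern, with threonine in first place and valine or isoleucine in last place, was searched too. It was found up to 1 time in the tails of *Ceacam1*, *Cd300lf*, *Sirpa*, *Siglece* and *Pilra* and not in those of the other members. *Ceacam1* had the motif in the smallest share of its coding transcripts, 2 of 7, against 3 of 5 for *Lair1* and all 8 for *Sirpa*. The other coding transcripts of *Ceacam1* had either a short tail of 15 codons or no membrane span by this search. The deposited values are sums per gene, so these forms of *Ceacam1* cannot be told apart in them.

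Relative to the bulk of the genes, all 10 receptors were higher in the LIP libraries than in the Ctrl libraries. With edgeR's quasi-likelihood test on TMM-normalized counts and Benjamini-Hochberg adjustment over the 10440 genes tested, 10 of 10 members passed an adjusted p of 0.05 in the higher direction, where 26.5% of all genes tested did, and none passed in the lower direction, where 27.2% did. The normalized counts of the 3 LIP libraries lay above those of the 3 Ctrl libraries for all 10 members, against 30.3% of the genes tested. Log2 fold changes (LIP over Ctrl) ran from 0.49 for *Ceacam1* to 2.16 for *Siglece*, with a median of 1.61 over the members and -0.09 over all genes tested. By size, 7 members from *Cd300a* upwards lay above the 90th percentile of all genes, which is 1.30, and *Clec12a*, *Lair1* and *Ceacam1* lay below it.

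TMM sets the scale so that most genes do not change, and the libraries differed in composition, so the scale bears on each of these values. Haemoglobin genes took between 14.6% and 15.02% of the counts in Ctrl and between 1.55% and 1.61% in LIP, total counts lay between 52186555 and 57262379, and TMM factors were 1.102 to 1.13 in Ctrl and 0.889 to 0.905 in LIP. With library totals in place of TMM, the split of all genes moved from 2766 higher and 2835 lower to 1919 higher and 4146 lower, the median of all genes moved from -0.09 to -0.42, and 9 members were still called higher. When libraries were scaled on 15 neutrophil marker genes, 33 genes were higher and 9489 lower, the median of all genes was -2.04, no member was higher, and 5 members were lower, namely *Ceacam1*, *Lair1*, *Clec12a*, *Cd300a* and *Pilra*. Relative to the median of all genes, the members' median was 1.71 under each of these 3 scalings. Another scale moves all genes by about the same amount, so this equality is built in. The direction of each member below is therefore a direction against the bulk of the genes in the libraries. Against the neutrophil markers only *Siglece* and *Lilrb4a* had log2 fold changes above 0, at 0.21 and 0.03, and neither was called.

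**Figure D1:**
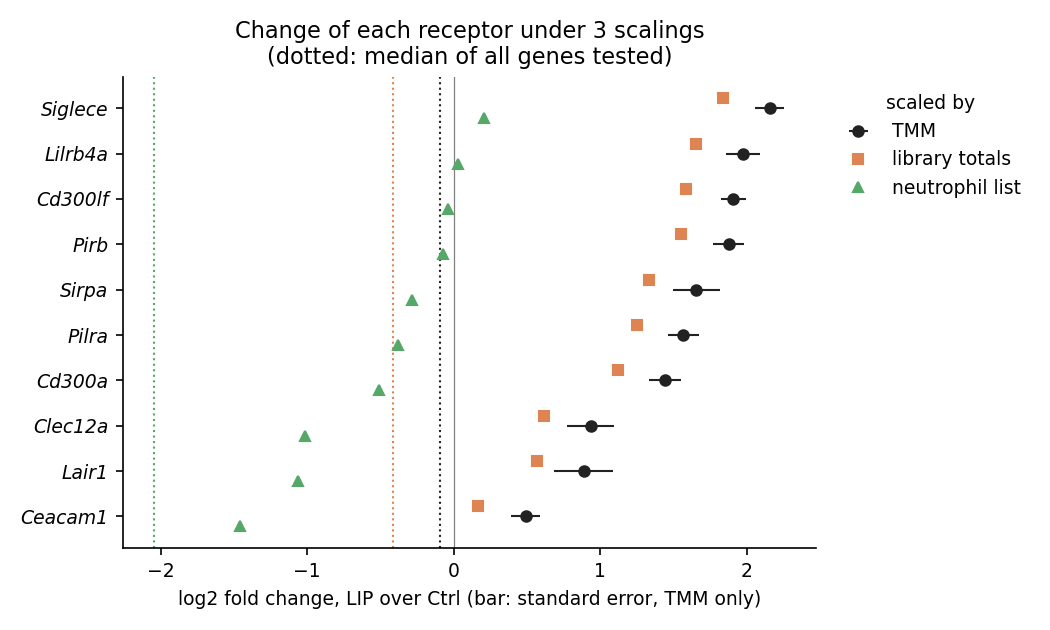
Log2 fold change (LIP over Ctrl, horizontal axis) of each receptor under TMM (black circles, bars are the standard error), library totals (orange squares) and scaling on the neutrophil list (green triangles), with dotted lines at the median of all 10440 genes tested under the same scaling. Every receptor lies to the right of the dotted line of its colour, and the order of the receptors is the same under all 3 scalings. Another scale moves all genes by about the same amount, so the 3 scalings are not separate evidence for this.

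The largest changes were those of *Siglece*, *Lilrb4a*, *Cd300lf* and *Pirb*. *Siglece* (ENSMUSG00000030474, chr7:43651070-43660161), the main sialic acid receptor of mouse neutrophils, had 43.3, 41.3 and 42.0 FPKM in the Ctrl libraries and 147, 149 and 159 FPKM in the LIP libraries. The 3 Ctrl values were close together and every LIP value was over 3 times as high, with a difference of 2.16 ± 0.0999 (log2 fold change ± standard error; edgeR adjusted p = 1.55e-07). *Cd300lf* (ENSMUSG00000047798, chr11:115116214-115133992), a receptor of phosphatidylserine and ceramide, had 74.9, 69.1 and 70.3 FPKM in Ctrl and 221, 225 and 203 in LIP. Its groups were also far apart, at a difference of 1.91 ± 0.0844 (log2 fold change ± standard error; edgeR adjusted p = 1.17e-07). *Cd300lf* lies inside *Rab37* on the opposite strand (mean FPKM 2.70), and the protocol does not mark strand, so reads of the pair cannot be told apart where they overlap.

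*Lilrb4a* (ENSMUSG00000112148, chr10:51490956-51496611), known as gp49B and a receptor of the integrin alphavbeta3, was the most abundant member in both groups, at 108, 81.3 and 86.3 FPKM in Ctrl and 318, 270 and 285 in LIP. The lowest LIP library was over 2 times the highest Ctrl library. The log2 fold change came to 1.97 ± 0.114 (standard error; edgeR adjusted p = 4.64e-07). *Lilrb4a* shares its sense strand with *Gm49339* (mean FPKM 63.3), which spans it and its neighbour *Lilr4b* and had a log2 fold change of 2.09, so the split of reads between the 3 genes is uncertain. *Pirb* (ENSMUSG00000058818, chr7:3711409-3720391), a receptor of MHC class I, had 56.3, 44.1 and 53.6 FPKM in Ctrl and 155, 154 and 147 in LIP. The LIP libraries were the tighter group, and the log2 fold change came to 1.88 ± 0.105 (standard error; edgeR adjusted p = 3.64e-07).

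*Sirpa* (ENSMUSG00000037902, chr2:129592835-129632228), which binds CD47, had 28.9, 18.5 and 29.4 FPKM in Ctrl and 62.3, 64.8 and 68.4 in LIP. The second Ctrl library was well below the other two, and all Ctrl values were under all LIP values (log2 fold change 1.66 ± 0.160, standard error; edgeR adjusted p = 1.27e-05). Without that library the adjusted p stayed under 0.05. *Pilra* (ENSMUSG00000046245, chr5:137821952-137836268), a receptor of sialylated O-glycans on proteins, had 57.8, 66.9 and 57.5 FPKM in Ctrl and 140, 151 and 146 in LIP. The groups were apart and the log2 fold change came to 1.57 ± 0.104 (standard error; edgeR adjusted p = 1.06e-06). *Cd300a* (ENSMUSG00000034652, chr11:114890041-114904654), which binds phosphatidylserine and phosphatidylethanolamine, had 27.5, 27.4 and 28.0 FPKM in Ctrl and 53.0, 66.4 and 63.0 in LIP. Its Ctrl libraries were nearly equal and its LIP libraries were spread, and the log2 fold change came to 1.44 ± 0.111 (standard error; edgeR adjusted p = 2.57e-06).

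The remaining members moved less. *Clec12a* (ENSMUSG00000053063, chr6:129342691-129364416), a C-type lectin that recognizes uric acid crystals and dead cells, had 7.47, 7.87 and 9.80 FPKM in Ctrl and 11.3, 15.3 and 12.3 in LIP, a difference of 0.93 ± 0.161 (log2 fold change ± standard error; edgeR adjusted p = 7.14e-04). *Lair1* (ENSMUSG00000055541, chr7:4003402-4063204), a collagen receptor, was the least abundant member, at 3.61, 2.84 and 2.75 FPKM in Ctrl and 3.90, 4.05 and 5.80 in LIP. The groups of *Lair1* nearly met, between the first Ctrl and the first LIP library, and the log2 fold change came to 0.89 ± 0.205 (standard error; edgeR adjusted p = 0.00431). This call was lost on FPKM values, where limma on log2(FPKM + 1) gave an adjusted p of 0.0647.

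*Ceacam1* (ENSMUSG00000074272, chr7:25461707-25477603) encodes CD66a, a receptor that binds itself and other CEACAM proteins on neighbouring cells. It had 37.7, 31.9 and 32.7 FPKM in Ctrl and 38.6, 39.0 and 38.4 in LIP. The LIP libraries were within 1 FPKM of each other, and the first Ctrl library came nearly up to them. On TMM-normalized counts it went from 192 ± 14.4 to 269 ± 2.45 CPM (counts relative to the library size; SD, n = 3 each), a difference of 0.49 ± 0.09997 (log2 fold change ± standard error; edgeR adjusted p = 0.00208), which is higher than that of 70.6% of the genes tested. This was the smallest change among the members. It was not called with library totals (log2 fold change 0.17, adjusted p = 0.174 from edgeR) or in limma on log2(FPKM + 1) (adjusted p = 0.166), its log2 fold change was -0.04 with totals that leave out haemoglobin genes, and it was lower in LIP when scaled on the neutrophil list.

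The ranks of the receptors by FPKM show the different place of *Ceacam1* in the groups. In Ctrl the order was *Lilrb4a*, *Cd300lf*, *Pilra*, *Pirb*, *Siglece*, *Ceacam1*, *Cd300a*, *Sirpa*, *Clec12a* and *Lair1*, and of these neighbours only *Cd300a* and *Sirpa* overlapped between libraries. In LIP it was *Lilrb4a*, *Cd300lf*, *Pirb*, *Siglece*, *Pilra*, *Sirpa*, *Cd300a*, *Ceacam1*, *Clec12a* and *Lair1*. The LIP libraries of *Pirb*, *Siglece* and *Pilra* overlapped in that order, as did those of *Sirpa* and *Cd300a*. *Ceacam1* thus stood sixth in Ctrl, apart from *Cd300a* below it, and eighth in LIP, below the libraries of *Cd300a* and *Sirpa*.

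**Figure D2:**
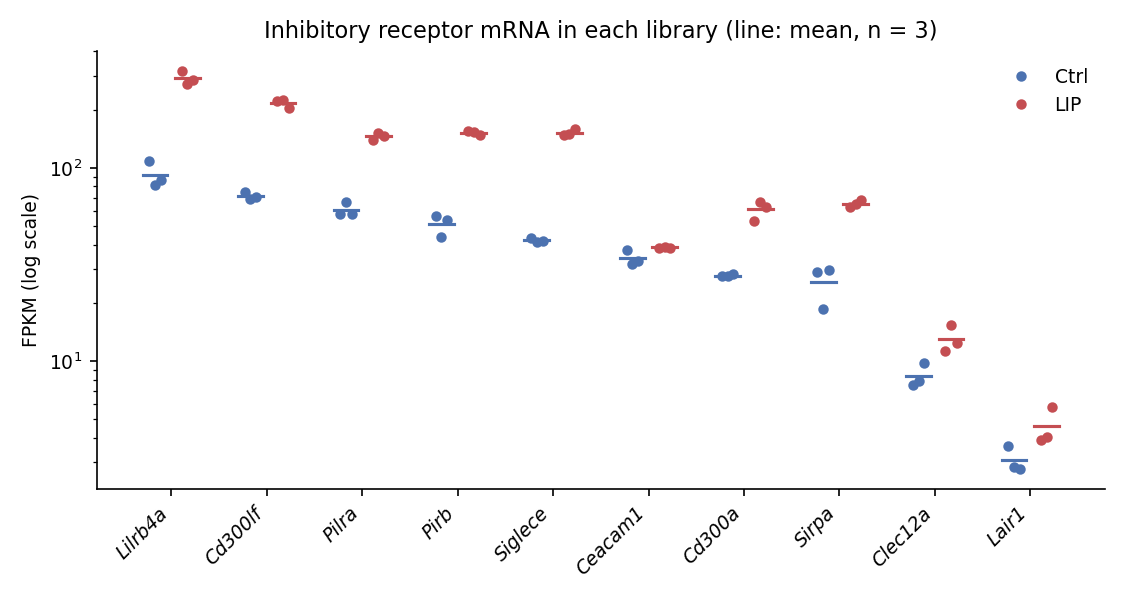
FPKM (log scale, vertical axis) of each inhibitory receptor in the 3 Ctrl libraries (blue points) and the 3 LIP libraries (red points), with a line at the mean of each group, ordered by the Ctrl mean. *Lilrb4a* is at the top and *Lair1* at the bottom in both groups, and the gap between groups is narrowest for *Ceacam1*, where the highest Ctrl library has 37.7 and the lowest LIP library 38.4 FPKM.

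A ratio of FPKM values within a library does not depend on how libraries are scaled. Ratios to *Ceacam1* were chosen after the values were seen and are given without a test. *Siglece* stood at 1.15, 1.29 and 1.28 times *Ceacam1* in the Ctrl libraries and at 3.82, 3.82 and 4.14 times in LIP. *Pirb* stood at 1.495, 1.38 and 1.64 times in Ctrl and at 4.02, 3.94 and 3.83 times in LIP. *Cd300a* was below *Ceacam1* in every Ctrl library, at 0.731, 0.859 and 0.857 times, and above it in every LIP library, at 1.38, 1.70 and 1.64 times. *Sirpa* likewise went from 0.767, 0.581 and 0.899 times to 1.62, 1.66 and 1.78 times. The ratio of *Clec12a* overlapped between the groups, at 0.198, 0.247 and 0.299 times in Ctrl and 0.293, 0.391 and 0.321 times in LIP. *Ceacam1* had the smallest change among the members, so higher mean ratios to it in LIP follow from that choice. These ratios restate the order of the changes and are not a further result.

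The genes whose profile over the 6 libraries lay nearest to that of *Ceacam1*, by Euclidean distance between mean-centred log2(TMM CPM + 1) values, were *Gm13363*, *Srsf5*, *Arf4*, *Arl6ip6* and *Leprot*, at distances of 0.0852, 0.0922, 0.0949, 0.113 and 0.114. *Srsf5*, *Arf4* and *Leprot* were called higher in LIP with log2 fold changes of 0.52, 0.51 and 0.49. *Arl6ip6* and *Gm13363* were not called (adjusted p = 0.0667 and 0.0978 from edgeR), and *Gm13363* was at 0.582 ± 0.158 and 1.13 ± 0.0278 CPM (SD, n = 3 each), which is close to the added 1. None of these 5 genes is a receptor of the list.

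Of 9 listed phosphatases and adaptors of ITIM signalling 8 were tested, and 3 were called higher in LIP and none lower, beside 26.5% and 27.2% of all genes tested, the median being 0.30 on the log2 scale. With library totals 2 were higher and 1 lower, and with totals that leave out haemoglobin genes 1 was higher and 1 lower. *Ptpn6*, which encodes SHP-1 and was the most abundant of the list, had 221, 240 and 225 FPKM in Ctrl and 260, 269 and 264 in LIP, and the log2 fold change came to 0.51 ± 0.0828 (standard error; edgeR adjusted p = 4.51e-04). Its groups did not overlap and lay close together. *Dok3* and *Grb2*, adaptors that bring further proteins to phosphorylated tails, rose by log2 fold changes of 0.92 and 0.64. *Ptpn11* (SHP-2) was at 5.99 ± 0.278 FPKM in Ctrl and 5.95 ± 1.36 in LIP, and *Inpp5d* (SHIP-1) at 31.0 ± 5.88 and 31.0 ± 4.26 (SD, n = 3 each). Neither was called (adjusted p = 0.165 and 0.0996 from edgeR), and the log2 fold changes of both were slightly below 0 with library totals, at -0.02 for *Ptpn11* and -0.01 for *Inpp5d*. *Inpp5d* was called higher in DESeq2 (0.35, adjusted p = 0.0332) and in edgeR without Ctrl replicate 1 (0.42, adjusted p = 0.0461). *Ptpn6* was not called with library totals (0.20) and was at -0.01 with totals that leave out haemoglobin genes.

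Of 5 Src family kinases listed as kinases of ITIMs, 3 were tested. The kinases of myeloid cells *Fgr* and *Lyn* were higher in LIP, with log2 fold changes of 1.83 and 1.08 (standard errors 0.108 and 0.101), and *Fgr* went from 57.5 ± 7.33 to 165 ± 10.9 FPKM (SD, n = 3 each). *Fyn* was lower, at a log2 fold change of -0.81. *Fyn* is also a kinase of T cells, and the T cell markers were lower in the same libraries. The part of T cells in the change of *Fyn* was not tested. *Lck* and *Blk*, members of the same family that were listed as markers of T cells and B cells (*Blk* is named after its values were seen), were lower too, at -1.32 and -2.29.

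The activating partners and their adaptors were also higher. Of 28 listed names 20 were in the table and 16 were tested. Of these 15 were higher in LIP and none was lower, beside 26.5% and 27.2% of all genes tested. *Cd300ld3*, named after its values were seen, was not called (log2 fold change 0.93, adjusted p = 0.0758 from edgeR). Their median log2 fold change was 1.62. *Tyrobp* (DAP12) went from 1409 ± 79.5 to 3260 ± 105 FPKM and *Fcer1g* from 749 ± 73.3 to 1736 ± 33.4 (SD, n = 3 each), both with a log2 fold change of 1.52. The largest changes were those of *Cd300lb*, *Lilr4b* and *Sirpb1b*, relatives of *Cd300lf*, *Lilrb4a* and *Sirpa*, at 2.10, 1.94 and 1.79.

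Inhibitory and activating relatives were set against each other in each library, and none of 6 such ratios was apart between the groups. *Lilrb4a* over *Lilr4b*, which lacks ITIMs, was 0.802, 0.992 and 0.858 in Ctrl and 0.901, 0.918 and 0.860 in LIP, a difference of 0.02 on the log2 scale (two-sided exact permutation p = 0.9, the smallest possible with 3 against 3 being 0.1). *Pilra* over *Pilrb1* was 3.09, 2.70 and 2.33 in Ctrl and 2.77, 2.65 and 2.91 in LIP (difference 0.04, exact p = 0.8), and *Sirpa* over *Sirpb1a* was 1.71, 1.04 and 1.83 in Ctrl and 1.54, 1.40 and 1.70 in LIP (difference 0.06, exact p = 1). In these 3 pairs the values of 1 group lay inside the range of the other. *Pirb* over *Pira2* was 3.23, 2.47 and 2.64 in Ctrl and 3.02, 3.23 and 3.41 in LIP, a difference of 0.22 (exact p = 0.3). *Cd300lf* differed by -0.21 against *Cd300lb* (exact p = 0.2) and by 0.29 against *Cd300ld* (exact p = 0.2), with overlapping groups in both. Without Ctrl replicate 2 the difference against *Cd300lb* was -0.0739, that against *Cd300ld* was 0.38, and that of *Pirb* against *Pira2* was 0.14. The last of these was 0.34 without Ctrl replicate 1. The members of each pair are close in sequence, and how reads that match both were counted is not given in the sources used here, so the ratios are uncertain. The smallest possible p of the exact permutation test, 0.1, lies above the threshold for calls, so this test could call no ratio, whatever its difference. Its p-values therefore do not show that the ratios are equal. A difference within the spread of the Ctrl ratios (SD 0.157 to 0.449 on the log2 scale, n = 3) also cannot be told from that spread.

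**Figure D3:**
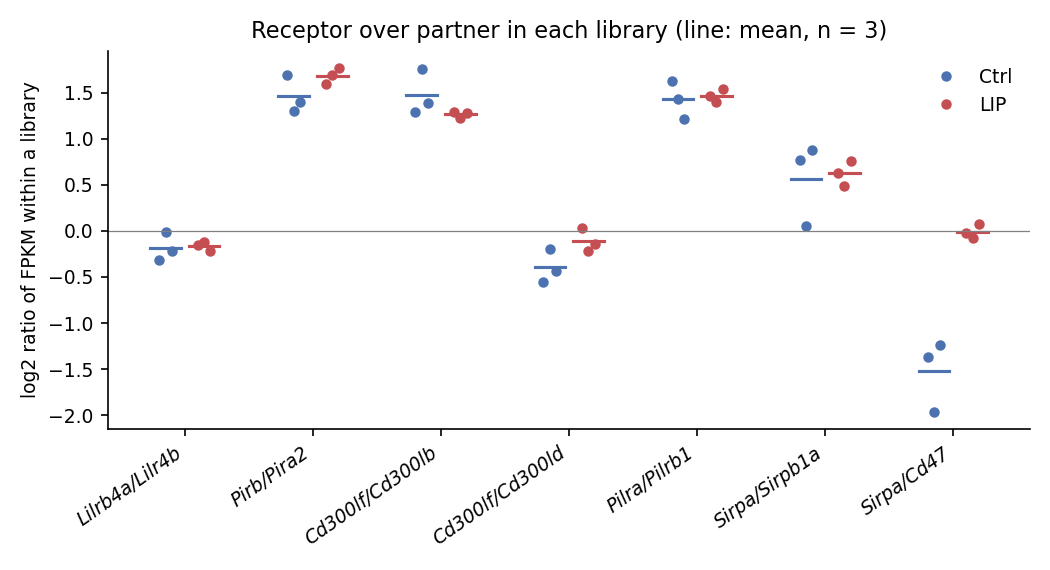
Log2 ratio of FPKM of a receptor over its partner (vertical axis) in each Ctrl library (blue) and LIP library (red), with a line at the group mean (n = 3). The groups overlap for the 6 ratios of an inhibitory receptor to an activating relative and are apart for *Sirpa* over *Cd47*. On the log2 scale shown, that ratio lies between -1.965 and -1.235 in Ctrl and between -0.0767 and 0.0772 in LIP.

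Of 16 listed ligands 14 were in the table and 8 were tested, and 4 were called higher and 1 lower in LIP, beside 26.5% and 27.2% of all genes tested, the median being 0.49 on the log2 scale. *Itgb3*, the beta chain of the integrin bound by gp49B, *Rtn4*, which encodes Nogo, a ligand of PIR-B, and *H2-D1*, an MHC class I heavy chain, had log2 fold changes of 1.23, 0.89 and 0.82. *B2m* (0.38, higher) and *H2-K1* (-0.23, lower), the light chain and another heavy chain of MHC class I, lie outside the naming rule and are named after their values were seen, and *H2-K1* was no longer called when normalized by median-of-ratios factors (adjusted p = 0.0544 from edgeR), without LIP replicate 2 (0.0597) or without LIP replicate 3 (0.0810). *B2m* was not called with library totals (log2 fold change 0.06, adjusted p = 0.523 from edgeR) or in limma on log2(FPKM + 1) (adjusted p = 0.422), and it was at -0.15 with totals that leave out haemoglobin genes. *Itgb3* is also carried by platelets, and all 8 platelet markers were higher in LIP, at a median of 1.24. The part of platelets in the change of *Itgb3* was not tested. *Cd47*, the ligand of SIRPalpha on nearly all cells, had 74.9, 72.3 and 69.2 FPKM in Ctrl and 63.5, 68.3 and 64.8 in LIP. Its FPKM was lower in every LIP library, its TMM log2 fold change was 0.17 (adjusted p = 0.119 from edgeR) and -0.15 with library totals, and its direction thus turned with the scale. *Sirpa* over *Cd47* in the same library was 0.386, 0.256 and 0.425 in Ctrl and 0.981, 0.948 and 1.06 in LIP, a difference of 1.52 on the log2 scale. The groups were apart, at the smallest exact permutation p of 0.1 (0.467 when adjusted over the 7 ratios tested).

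Of 18 other receptors, listed by name as ITIM receptors for comparison, 16 were tested. In LIP 7 of them were called higher and 4 lower, beside 26.5% and 27.2% of all genes tested, and the median of the list was 0.53 on the log2 scale. The lower genes were *Cd72*, *Cd22* and *Btla*, at -2.54, -2.37 and -2.36, and *Siglecg* at -1.82, which is named after its values were seen. These 4 are receptors of B cells, *Btla* also of T cells, and the part of these cells in the changes was not tested. *Cd22* went from 40.7 ± 9.04 to 6.34 ± 1.09 FPKM (SD, n = 3 each). Among the higher genes *Cd33*, a myeloid relative of *Siglece* also named after its values were seen, had the largest log2 fold change, 2.04. The motif was searched in the members only. Whether *Cd33* and the other genes of this comparison list carry an ITIM in the mouse was not tested.

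**Figure D4:**
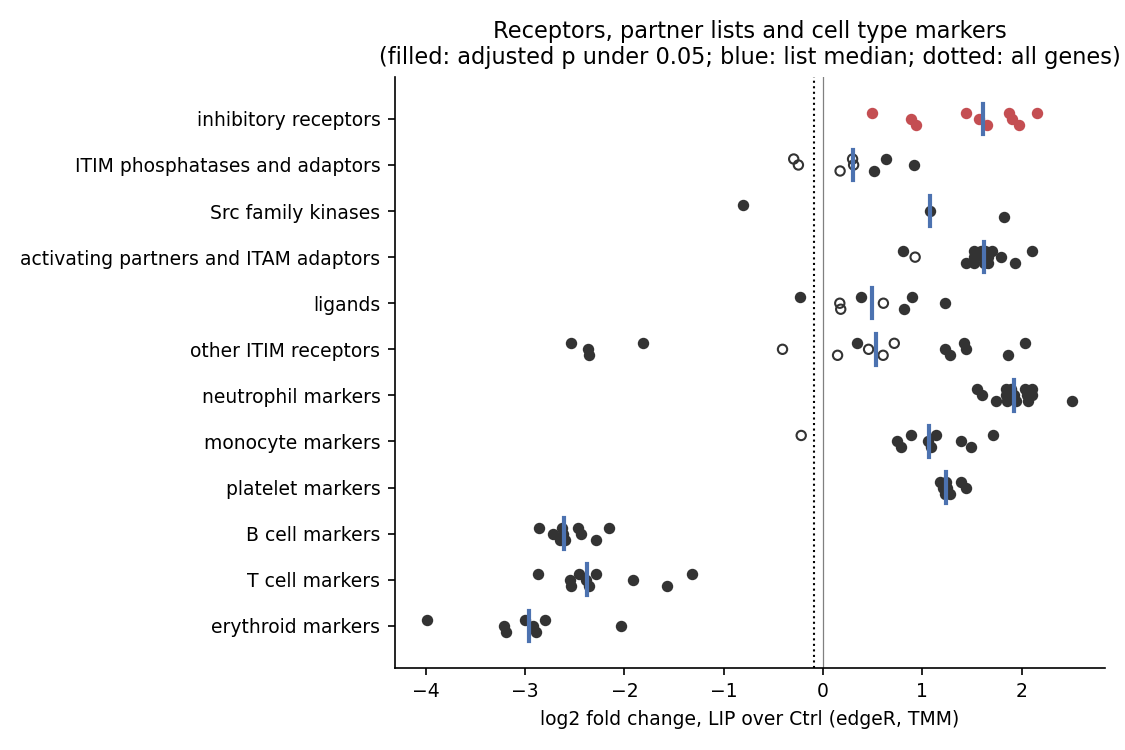
Log2 fold change (LIP over Ctrl, horizontal axis, edgeR with TMM) of each tested gene of the inhibitory receptors (red), the 5 lists of the pathway and the cell type markers, filled where the adjusted p is under 0.05, with a blue line at each list's median and a dotted line at the median of all genes tested (-0.09). The receptors and the activating partners lie at medians of 1.61 and 1.62, the neutrophil, platelet and monocyte markers at 1.92, 1.24 and 1.07, and the B cell, the T cell and the erythroid markers at -2.60, -2.37 and -2.96.

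Markers of other blood cells differed between the groups in the same libraries. The sort markers *Ly6g* and *Itgam* (CD11b) were detected in all libraries and had log2 fold changes of 1.55 and 1.74, and *Ptprc* (CD45) had 1.18. All 15 neutrophil markers were higher, beside 26.5% of all genes tested. Their summed FPKM was between 15085 and 18364 in Ctrl and between 52675 and 57315 in LIP. The most abundant of them was *S100a9* (log2 fold change 2.03). All 10 B cell, all 10 T cell and all 8 tested erythroid markers were lower, beside 27.2% of all genes tested. Summed FPKM was 3996 to 4340 in Ctrl against 573 to 633 in LIP for B cells and 220 to 244 against 38.3 to 48.8 for T cells. In bulk samples, fewer cells of a type and less RNA per cell cannot be told apart.

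Of the 10 monocyte markers 9 were higher in LIP, beside 26.5% of all genes tested. The summed level of the list went from between 237 and 262 FPKM to between 350 and 375 FPKM. The tenth, *Ms4a4c*, named after its values were seen, was not called in edgeR with TMM (log2 fold change -0.22, adjusted p = 0.179) and was called lower with library totals (-0.54, adjusted p = 0.00463) and in limma on log2(FPKM + 1) (adjusted p = 0.00352). No monocyte marker was at 0 in any library. When libraries were scaled on the neutrophil list, 0 monocyte markers were higher and 8 were lower. Monocytes carry most of the receptors described here too, and the part of monocytes, or of the change in neutrophil share, in the rise of the receptors was not tested. Of the NK cell list 3 of 6 tested genes were higher, but 1 was without Ctrl replicate 1, Ctrl replicate 3 or LIP replicate 2, none with library totals, and none was higher and 2 were lower with totals that leave out haemoglobin genes. Of the eosinophil and basophil list 1 of 5 was higher, near the share of all genes tested, and none with library totals. Of 2 dendritic cell genes 1 was higher and 1 lower. The leading genes of these lists were *Gzma* (log2 fold change 0.20, not called), *Gata2* (0.94) and *Cd83* (-2.16).

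The members were also compared by the letters of their promoters. The background was all windows and not those of myeloid genes, and a link between the letters and the changes was not tested. RefSeq promoter windows on GRCm38.p6, from 250 bases before to 50 bases after the start, were given for 8 of the 10 members, and *Lilrb4a* and *Sirpa* had no entry. GAGGAAG, the core of sites of PU.1, a transcription factor of myeloid cells, was found on either strand in 7 of the 8 windows and in 13.5% of all 27025 windows. The window of *Ceacam1* is the one without it, while *Clec12a* and *Lair1*, which also moved less than the other members, hold it. *Siglece* and *Cd300lf* hold the letters at 2 places, and the second place in *Cd300lf*, which begins at the start itself, is not printed. The other 8 matches are shown with 10 bases on either side, on the gene's strand, with the match in capitals.
Pirb: tcacaccattGAGGAAGtcagagcatg (chr7:3720486-3720512)
Cd300a: gctagcaggtCTTCCTCtccacaaggc (chr11:114889991-114890017)
Cd300lf: accctacctcCTTCCTCttttggtgct (chr11:115134020-115134046)
Clec12a: gaagaaatatGAGGAAGaaaagtgttc (chr6:129350173-129350199)
Siglece: gtctgaagctCTTCCTCctgaggcagc (chr7:43660233-43660259)
Siglece: tccgctggggCTTCCTCagggccttgc (chr7:43660182-43660208)
Lair1: agagaaacctCTTCCTCtccatgtggg (chr7:4063215-4063241)
Pilra: aagaaaaataGAGGAAGggaaacagag (chr5:137836473-137836499)
*Pirb*, *Clec12a* and *Pilra* hold the letters as listed and the others their reverse complement, and those printed begin at positions from -211 in *Pilra* to -27 in *Lair1* relative to the start. TTGCNNAA, for C/EBP factors of the granulocyte lineage, was found in *Cd300a*, *Clec12a*, *Lair1* and *Pilra* and in 10.8% of all windows. GAAA, any pair of letters and GAAA again, for interferon-regulated factors, was found in *Pilra* alone (3.49% of all windows), and TGANTCA, for AP-1, in *Clec12a* alone (7.93%). A match is a run of letters and not a shown site, and no match says nothing about the factor.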

How the data were processed

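Neutrophils were sorted from PB, and Smart-seq2 libraries were sequenced as paired 150 bp reads. The submitters' processing notes name cutadapt 1.9, FastQC and GRCm38, whereas the aligner, the counting tool and the use of strand are not given in the sources used here. For each gene and library the authors deposited a whole-number read count, not normalized, and an FPKM value, which they derived from the count with the gene's length and the library total. The deposited table also holds Gene Ontology annotation, which was not used. Where a gene name stood on several rows (50 names), the more abundant row was taken.

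The counts were tested with edgeR 4.0.16 (R 4.3.3), quasi-likelihood, TMM and no replicate block, over the 10440 genes whose FPKM averaged 1 or more, and p-values were adjusted by Benjamini-Hochberg, with calls at an adjusted p under 0.05. The standard error of a log2 fold change is its size over the square root of F. The code was tested on simulated data. Alternatives used limma 3.58.1, DESeq2 1.42.0, other scalings and filters, a replicate block, and leaving out each library. The members and lists were chosen with earlier results of these data known, and no set test was made. A result that is not reported here was left out of the text and of the list counts. Named genes are the members, their main signalling partners, the genes of the ratios, the 3 most changed called genes of each pathway list, the sort markers, the 5 genes nearest to *Ceacam1* and the most abundant gene of each cell type list. Groups and replicate numbers come from the labels. Nothing says that the pools are more than separate samples, so p-values measure the spread between them.

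Total counts of 52186555 to 57262379 make counting error small beside this spread. Within a group, pairs of libraries differed by a chi-square of 51.9 to 126 per gene, so none was counted as 1 sample with another. Reads carry no molecular identifiers. The common biological coefficient of variation was 0.265.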

Additional observations from a re-analysis of the deposited data

How the results depend on the processing

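All 10 members stayed called higher with median-of-ratios factors, DESeq2, no filter, filterByExpr, the replicate block and in each of the 6 fits without 1 library, and 9 of 9 did with genes of a mean FPKM of at least 5, where *Lair1* is filtered out. *Ceacam1* lost its call when library totals set the scale and in both limma fits, on log2(FPKM + 1) and on log2(FPKM + 0.1), *Lair1* lost it in these limma fits and with totals that leave out haemoglobin genes, and the members called were then 9, 8, 8 and 8 in turn for library totals, totals without haemoglobin genes and the limma fits. The labels link same-numbered libraries by number alone. Correlations of their deviations were 0.0212, 0.0562 and 0.0364, and those between differently numbered libraries ran from -0.0504 to 0.0217. The replicate block gave 2724 higher and 2822 lower genes and changed no call of a member. The cause of each difference below was not tested, except that another scale moves all genes together and a stricter filter tests fewer genes.

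Scaling on the neutrophil list shifts every gene by about the same amount. It left 0 members higher and 5 lower, and over all genes 33 higher and 9489 lower. The pathway lists then had 0 genes higher each, and 8 of the phosphatases and adaptors, 2 of the Src family kinases, 10 of the activating partners, 7 of the ligands and 13 of the other ITIM receptors were lower. Among the genes of the naming rule, the log2 fold changes that turned negative under it were *Arf4* -1.44, *Arl6ip6* -1.44, *Cd300a* -0.51, *Cd300ld* -0.33, *Cd300lf* -0.0413, *Cd47* -1.78, *Ceacam1* -1.46, *Clec12a* -1.01, *Dok3* -1.03, *Fcer1g* -0.43, *Fgr* -0.12, *Gata2* -1.01, *Gm13363* -0.99, *Grb2* -1.31, *Gzma* -1.75, *H2-D1* -1.13, *Inpp5d* -1.64, *Itgam* -0.20, *Itgb3* -0.71, *Lair1* -1.06, *Leprot* -1.46, *Lilr4b* -0.00863, *Ly6c2* -1.16, *Ly6g* -0.40, *Lyn* -0.87, *Pilra* -0.38, *Pilrb1* -0.43, *Pira2* -0.29, *Pirb* -0.0708, *Ppbp* -0.72, *Ptpn11* -1.65, *Ptpn6* -1.43, *Ptprc* -0.76, *Rtn4* -1.05, *Sirpa* -0.29, *Sirpb1a* -0.32, *Sirpb1b* -0.16, *Srsf5* -1.42 and *Tyrobp* -0.43, and outside the rule those of *B2m* (-1.57) and *Cd300ld3* (-1.01) did.

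Totals that leave out haemoglobin genes gave 1460 genes higher and 5120 lower, 1 phosphatase or adaptor higher and 1 lower, and 2 ligands higher and 2 lower. Log2 fold changes turned negative there for *Arf4* (-0.0222), *Arl6ip6* (-0.0225), *Cd47* (-0.36), *Ceacam1* (-0.0404), *Gzma* (-0.33), *Inpp5d* (-0.22), *Leprot* (-0.0395), *Ptpn11* (-0.23), *Ptpn6* (-0.0140) and *Srsf5* (-0.00689), and, outside the rule, for *B2m* (-0.15). With library totals they did for *Cd47* (-0.15), *Gzma* (-0.12), *Inpp5d* (-0.0135) and *Ptpn11* (-0.0211), in limma on log2(FPKM + 1) for *Cd47* (-0.14), *Gzma* (-0.10) and *Ptpn11* (-0.0244), and in limma on log2(FPKM + 0.1) for *Cd47* (-0.14), *Gzma* (-0.10) and *Ptpn11* (-0.0308). Among the phosphatases and adaptors 1 gene was called lower in each of these fits, the inhibitory kinase *Csk* (named after its values were seen), and also at a mean FPKM of at least 5, where 1768 genes were higher and 1869 lower. The ligand called lower was not called with median-of-ratios factors, in DESeq2 or with no filter (0 lower in each). Without each library in turn the number of ligands called lower was 0 to 1, and it was 0 without LIP replicate 2 or LIP replicate 3. On the log2 scale the ratio of *Lilrb4a* to *Lilr4b* differed by -0.0475 to 0.11, *Pilra* to *Pilrb1* by -0.0618 to 0.14, *Sirpa* to *Sirpb1a* by -0.20 to 0.21, *Pirb* to *Pira2* by 0.14 to 0.34, *Cd300lf* to *Cd300lb* by -0.31 to -0.0739, *Cd300lf* to *Cd300ld* by 0.21 to 0.38 and *Sirpa* to *Cd47* by 1.30 to 1.66 without each library in turn.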
